A study of Mus musculus with 4 samples.

Results

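The non-epithelial cells of a thoracic and an inguinal mammary tumour of the same mouse were compared. Cells were chosen from raw counts of unique molecular identifiers (UMIs, each standing for 1 captured mRNA molecule). Fibroblasts had at least 15 UMIs of the collagen genes Col1a1, Col1a2 and Col3a1 together. Macrophages had at least 5 UMIs of the complement genes C1qa, C1qb and C1qc, and endothelial cells at least 4 UMIs of the vessel genes Cdh5, Pecam1, Egfl7, Emcn and Kdr. All were limited to 2 UMIs of the epithelial keratins Krt8 and Krt18, and cells that met the rule of 2 gates were dropped. The gates held 3132 of the 17858 cells of these 2 tumours, 1868 from the thoracic and 1264 from the inguinal library, of 36162 cells in the series.

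The tumours came from female MMTV-PyMT::K14Cre::Rosa-tdTomato mice of 13 to 14 weeks on an FVB background. MMTV-PyMT expresses the polyoma middle T oncogene under a mammary tumour virus promoter. K14Cre drives Cre recombinase from a keratin 14 promoter, and Rosa-tdTomato is a reporter switched on by Cre. Tumour 3 (thoracic gland) and tumour 4 (inguinal gland) were taken from mouse 3. For reference, mouse 1 gave tumour 1, a pool over several glands, and mouse 2 gave tumour 2, which was inguinal. All 4 tumours carried the same transgenes, so there was no transgene-free control. Tissue was digested with Liberase, and dead cells were removed on a column without a sort for cell type. With 1 library a side and 1 mouse, position, tumour and library cannot be told apart, and no test between glands was made. The intervals given below are exact 95% intervals and cover counting error only.

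Mammary tumours grow within a stroma of fibroblasts, which lay down collagens and other matrix proteins, macrophages, which clear debris and present antigen, and endothelial cells, which line blood and lymphatic vessels. Fibroblasts are known to differ with their place in the body and with their place in a tissue, for example around vessels or at the edge of epithelium. Fibroblasts near tumours often take on a contractile, matrix-producing state marked by genes such as Postn and Cthrc1.

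The thoracic library held 8434 cells with a median of 2854 UMIs, and the inguinal library 9424 cells with a median of 2589.5. Mitochondrial UMIs were between 0.435% and 0.592% of the total in the 6 groups of gated cells. The 2 libraries shared 105 cell barcodes, 4 of them among gated cells. Levels are given as CPM, a gene's UMIs scaled to a common total of all UMIs in the cells of a gate. Of 8 fibroblast, 8 macrophage and 8 endothelial markers, all were at 50 CPM or more in their own gate in both libraries. Transcripts of other cells were also present. The summed level of 10 milk and secretory genes of the epithelium was lower in the thoracic than in the inguinal library in every gate, at 2139 against 2962 CPM in fibroblasts, 2978 against 4692 CPM in macrophages and 3112 against 5133 CPM in endothelial cells.

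Each of the cell types made up a larger part of the thoracic library. Fibroblasts were 651 cells (7.72%, interval 7.16 to 8.31%) of the thoracic and 408 cells (4.33%, 3.93 to 4.76%) of the inguinal library. Macrophages were 914 cells (10.8%, 10.2 to 11.5%) against 672 cells (7.13%, 6.62 to 7.67%). Endothelial cells were 303 (3.59%, 3.21 to 4.01%) against 184 (1.95%, 1.68 to 2.25%). In tumours 1 and 2 the shares were 2.36% and 1.61% for fibroblasts, 8.16% and 3.99% for macrophages, and 1.12% and 1.05% for endothelial cells, so the thoracic tumour had the highest share of each type in the series. These shares are not adjusted for depth, and tumours 1 and 2 had medians of 1922.5 and 3281 UMIs per cell. Counted among gated cells alone, the makeup was closer, since the ratio of thoracic to inguinal share was then 1.08 for fibroblasts, 0.920 for macrophages and 1.11 for endothelial cells. When each cell was thinned to 1300 UMIs before gating, the fibroblast ratio was 1.36 in place of 1.78. At the edges of the gates, 21 thoracic and 5 inguinal cells had exactly 15 collagen UMIs and 13 and 7 had 14. For macrophages 9 and 8 cells were at the minimum and 14 and 7 were 1 UMI below it. For endothelial cells 47 and 32 were at the minimum and 51 and 32 were 1 UMI below it.

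**Figure D1:**
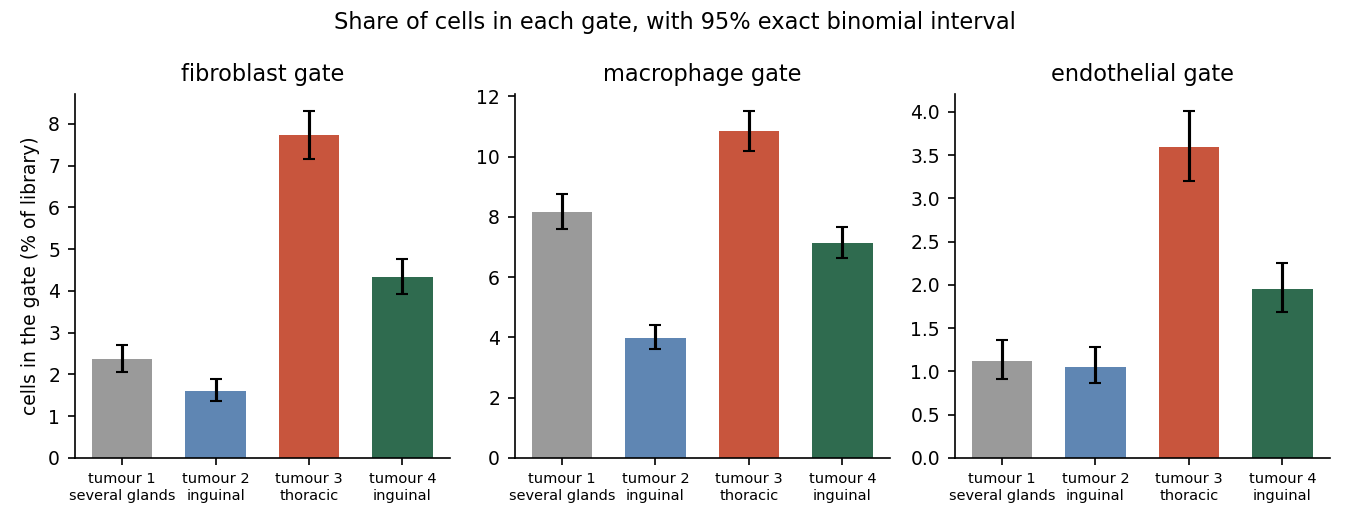
Share of all cells in each gate (y axis, % of library) for the 4 tumours (bars), with exact binomial 95% intervals (lines). The thoracic tumour 3 has the tallest bar in each panel, at 7.72%, 10.8% and 3.59%.

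Fibroblasts had the most genes past 2-fold at these settings. The order turned with the gate minimum doubled (225 genes in endothelial cells, 150 in fibroblasts) and with a keratin limit of 0 (151 and 150). Levels were compared as CPM on UMIs summed over the cells of a gate. Genes needed at least 50 CPM in the higher gland and 20 UMIs in both together. The genes of the gates were kept in these counts, and were left out of the lists and of the genes named by rank. Of 2663 genes, 134 (5.03%) were more than 2-fold apart, 66 (2.48%) higher and 68 (2.55%) lower in thoracic fibroblasts. In macrophages 12 of 2157 genes (0.556%) were, 5 (0.232%) higher and 7 (0.325%) lower. In endothelial cells 81 of 2844 genes (2.85%) were, 36 (1.27%) higher and 45 (1.58%) lower, which became 55 higher and 37 lower with the TMM scaling of edgeR. Fewer cells give noisier ratios, and the middle 90% of log2 ratios ran from -0.72 to 0.66 in fibroblasts, -0.38 to 0.41 in macrophages and -0.69 to 0.62 in endothelial cells.

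**Figure D2:**
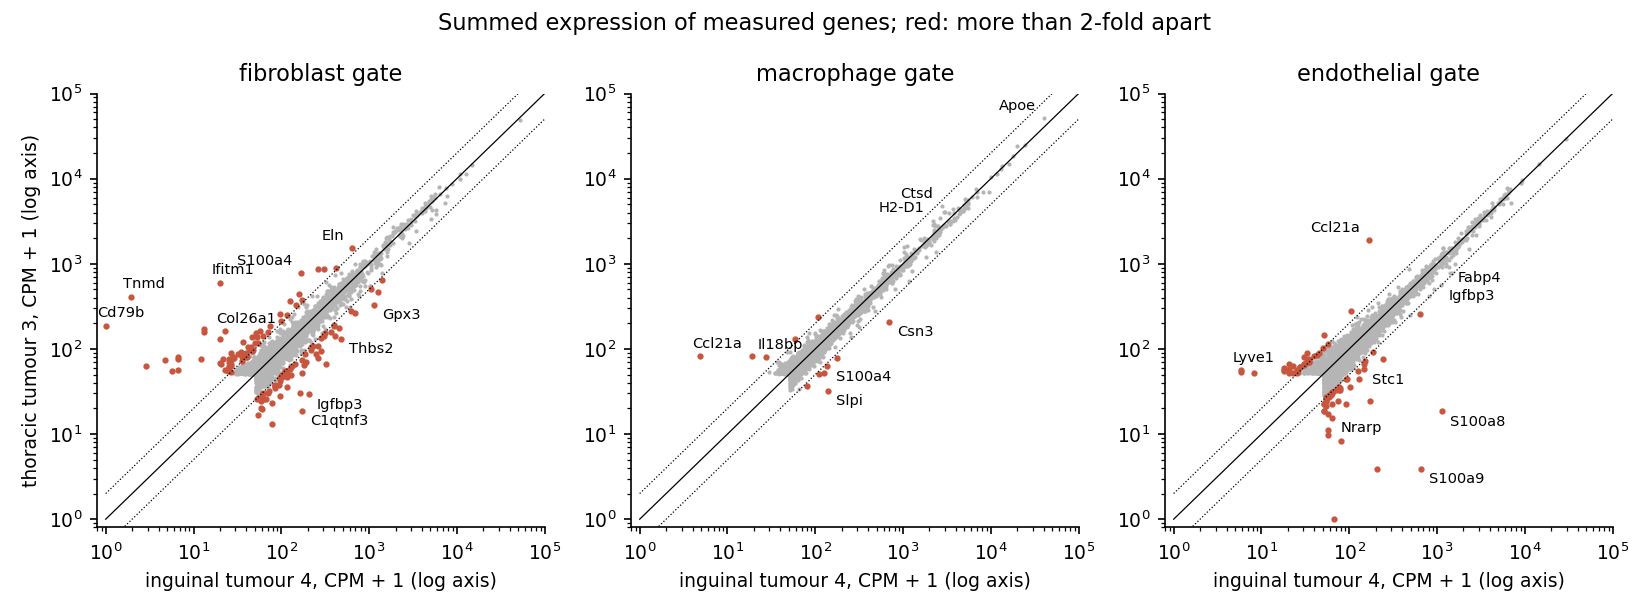
Summed level of each measured gene in the inguinal tumour 4 (x axis) and the thoracic tumour 3 (y axis), as CPM + 1 on log axes, in the 3 gates. Red points are more than 2-fold apart (dotted lines), 134 in fibroblasts, 12 in macrophages and 81 in endothelial cells.

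Among thoracic fibroblasts, a set of genes was at high level that was nearly missing from inguinal ones. Tnmd encodes tenomodulin, a membrane glycoprotein known from tendon and other dense connective tissue. The thoracic fibroblasts held 784 UMIs of it in 248 of 651 cells, and the inguinal fibroblasts 1 UMI in 408 cells (410 against 0.941 CPM). The ratio of 436 had an interval of 78.1 to 17252. Cd79b encodes a chain of the B cell receptor complex. It had 355 UMIs in 179 thoracic fibroblasts and 0 in inguinal ones (186 against 0 CPM), at least 65.8-fold higher against a floor of 3 counts in the inguinal library. Ifitm1, an interferon-induced membrane protein, stood at 598 against 18.8 CPM (31.8-fold, 20.5 to 52.3). These 3 genes were at 50.4, 20.2 and 73.1 CPM in the fibroblasts of tumour 1, and at 0, 0 and 7.42 CPM in those of tumour 2.

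Entries were looked up in RefSeq on GRCm38.p6 for Tnmd, Cd79b, Ifitm1 and Col26a1, and 2 matched. The 250 bases upstream of the start that RefSeq annotates are shown because both genes were high in thoracic fibroblasts. Gene positions are from GENCODE M21, whose outermost start lies upstream of the RefSeq start in both genes, so that the windows overlap the GENCODE genes. Tnmd lies on chromosome X (gene at 133850980 to 133865577, plus strand, a protein-coding gene) and its window is chrX:133850758-133851007. Ifitm1 lies on chromosome 7 (140967221 to 140969825, plus strand, protein-coding) and its window is chr7:140967826-140968075. Both are written 5′ to 3′ on the plus strand, with capitals for GGAA on either strand (TTCC is its complement).
Tnmd: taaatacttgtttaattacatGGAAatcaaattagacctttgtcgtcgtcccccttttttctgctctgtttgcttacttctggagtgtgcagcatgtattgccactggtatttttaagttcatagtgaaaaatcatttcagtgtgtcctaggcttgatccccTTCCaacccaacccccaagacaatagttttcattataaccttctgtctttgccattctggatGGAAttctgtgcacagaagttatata
Ifitm1: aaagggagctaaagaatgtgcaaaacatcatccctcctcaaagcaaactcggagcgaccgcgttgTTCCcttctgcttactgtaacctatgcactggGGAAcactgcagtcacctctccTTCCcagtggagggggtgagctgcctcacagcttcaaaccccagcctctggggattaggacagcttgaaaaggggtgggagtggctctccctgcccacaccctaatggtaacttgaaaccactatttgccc
GGAA occurred 3 times in each window and in 93.4% of 32851 promoter windows of that length. CANNTG, which occurred in 66.2% of windows, TATAAA (12.4%) and GGGCGG (32.7%), each searched on both strands, were in neither. The G and C content was 38.4% for Tnmd and 53.6% for Ifitm1.

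The other genes that were highest in thoracic fibroblasts included signalling, matrix and vessel-related genes. Rasgrp2, an exchange factor for Rap GTPases, was at 72.2 against 3.76 CPM (19.2-fold, 7.33 to 71.5). Lamc3, a laminin chain of basement membrane, was at 79.5 against 5.64 CPM (14.1-fold, 6.33 to 39.0). Map2, a microtubule-associated protein, was at 74.8 against 5.64 CPM. Angpt2, a ligand of the endothelial receptor Tie2, was at 53.9 against 4.70 CPM, and Smim41 at 54.9 against 5.64 CPM. Col26a1, a collagen chain, was at 161 against 21.6 CPM (7.45-fold, 4.88 to 11.9). S100a4, a calcium-binding protein of fibroblasts and motile cells, was at 780 against 166 CPM (4.71-fold, 4.03 to 5.54), with 290 and 328 CPM in tumours 1 and 2. For Rasgrp2, Lamc3, Map2, Angpt2, Smim41 and Col26a1, the fibroblasts of tumours 1 and 2 were at 30.2 CPM or below, under the thoracic level of each gene.

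The 10 lowest ratios in thoracic fibroblasts included secreted proteins, enzymes, a receptor chain and a non-coding RNA. C1qtnf3, a secreted protein of the C1q and TNF family, was at 17.8 against 171 CPM, 9.62-fold (6.64 to 14.3) higher in the inguinal library, with 52.9 and 288 CPM in tumours 1 and 2. Thbs2, the matrix protein thrombospondin 2, was at 131 against 473 CPM (3.60-fold, 3.09 to 4.21), and Fndc1 at 29.3 against 163 CPM (5.55-fold, 4.09 to 7.65). Gpx3, a secreted glutathione peroxidase, was at 329 against 1137 CPM (3.46-fold, 3.14 to 3.82), with 695 and 1082 CPM in tumours 1 and 2. The chemokine Ccl7, the imprinted RNA H19, the enzymes Moxd1, Ugcg and Ddah1 and the interleukin 4 receptor chain Il4ra made up the rest of the 10 lowest, between 3.15-fold and 6.49-fold higher in the inguinal library. Of the 134 genes, the fibroblasts of tumour 2, also inguinal but of another mouse, were nearer in level to the inguinal tumour 4 for 54 of the 66 higher and 50 of the 68 lower genes (81.8% and 73.5%, against 54.1% of all measured genes). For the pooled tumour 1 the counts were 44 and 43 (66.7% and 63.2%, against 53.4%). The other gates differed from this. Endothelial cells of tumour 2 were nearer the inguinal tumour 4 for 12 of 36 higher and 21 of 45 lower genes (33.3% and 46.7%, against 50.8% of all measured genes). Macrophages of tumour 2 were nearer it for 5 of 5 higher and 2 of 7 lower genes, against 45.6% of all measured genes.

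Some genes past 2-fold in fibroblasts were left out of the ranking for their level in other cells, and are named as such. Slco2a1, a prostaglandin transporter, was at 171 against 12.2 CPM, and at 385 CPM in another gate over both glands. The neutrophil genes S100a8 and S100a9 were at 158 against 12.2 CPM and at 61.8 against 1.88 CPM, but 1 thoracic cell carried 376 of their 419 UMIs. Fcer1g, an Fc receptor chain, was at 131 against 18.8 CPM. Igfbp3, a binding protein of insulin-like growth factors, was at 28.3 against 203 CPM, and Ptn, a heparin-binding growth factor, at 27.2 against 96.9 CPM. Of 11 measured growth factor and binding protein genes, 4 were past 2-fold lower and 0 higher in thoracic fibroblasts, against 2.55% and 2.48% of all measured genes.

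Many thoracic fibroblasts held several of the thoracic-high genes. After the values were seen, 8 genes were chosen (Tnmd, Cd79b, Ifitm1, Col26a1, Slco2a1, Lamc3, Map2 and Rasgrp2), and fibroblasts with a UMI of at least 2 of them were counted. They were 290 of 651 thoracic fibroblasts (44.5%, 40.7 to 48.5%) and 4 of 408 inguinal ones (0.980%, 0.268 to 2.49%). Tumour 1 had 14 of 206 (6.80%, 3.77 to 11.1%) and tumour 2 had 1 of 154 (0.649%). Thinned to 1300 UMIs, the shares of the thoracic and inguinal libraries were 35.8% and 0.245%. Of the 651 thoracic fibroblasts, 278 held 0 and 83 held 1 of the 8 genes. The choice of genes favours the thoracic share. The share that genes spread independently over cells would give was not calculated. In epithelial cells, which should lack this combination, 2.42% of thoracic and 2.15% of inguinal cells had 2 or more, at medians of 4334 and 3920 UMIs against 2806 and 2443.5 in the fibroblasts. At least 4 of the 8 genes were found in 201 thoracic fibroblasts, in 0 of 2727 thoracic epithelial cells, which allows a share of up to 0.110% (3 counts of the total, a limit used here for every count of 0 cells), and in 0 of 408 inguinal fibroblasts, which allows up to 0.735%. Outside the gate, 3 or more of the genes were found in 47 of the 3590 thoracic cells in no class, with a median of 10 collagen UMIs, and in 1 of 4260 inguinal ones.

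**Figure D3:**
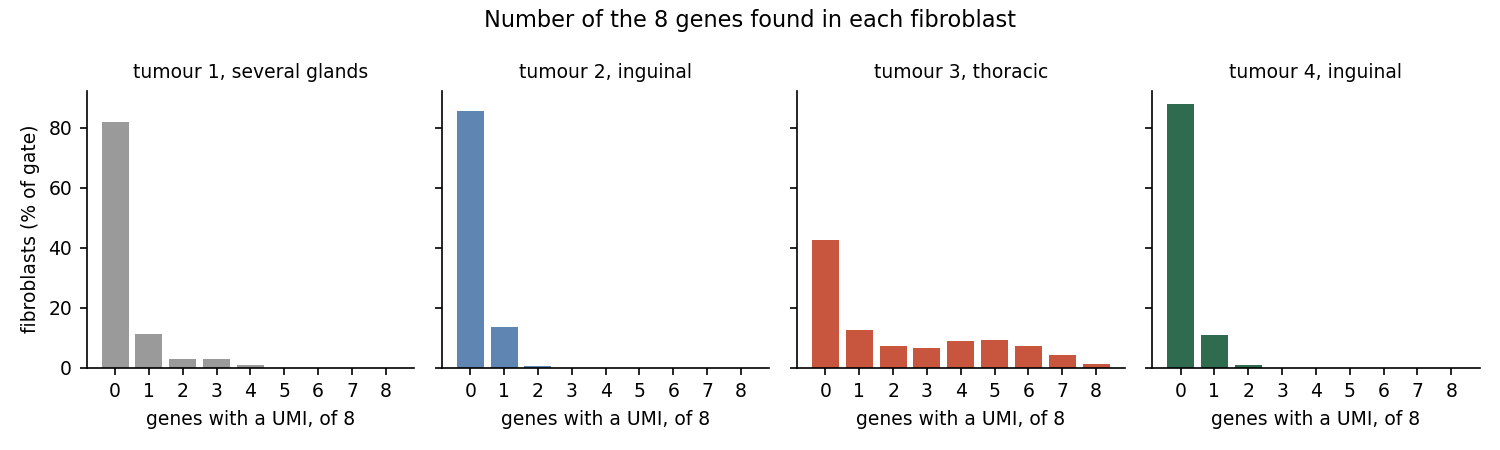
Number of the 8 genes with a UMI in each cell (x axis) and percent of the fibroblasts (y axis) in the 4 tumours. In the thoracic tumour 3 the count spreads up to 8, with 201 cells at 4 or more, while no inguinal tumour 4 fibroblast has more than 2.

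The shares of the library were also counted with and without these cells. The genes were chosen for their thoracic excess, so the split takes out thoracic cells by construction and the values are a description. The cells were 3.44% (3.06 to 3.85%) of all thoracic cells and 0.0424% (0.0116 to 0.109%) of inguinal cells. The remaining fibroblasts were 361 thoracic and 404 inguinal cells, 4.28% (3.86 to 4.73%) and 4.29% (3.89 to 4.72%), a ratio of 0.998 (0.864 to 1.15). The cells of the group were somewhat deeper, with a median of 3132 UMIs against 2461 in the other thoracic fibroblasts, and had a median of 34 against 40 collagen UMIs. A UMI of the cell cycle genes Mki67 or Top2a was found in 4.14% and 6.09% of these 2 sets of cells. The tdTomato reporter was at 255 CPM in the group, 215 CPM in other thoracic and 274 CPM in inguinal fibroblasts.

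The cells of the group held fibroblast markers, and of the B cell markers Cd79b only. All 8 fibroblast markers were found, at a sum of 5357 CPM against 7399 CPM in other thoracic fibroblasts. Cd79b was 1 of 7 B and plasma cell markers looked for. Its partner in the receptor, Cd79a, had 0 UMIs, and in thoracic fibroblasts as a whole Ms4a1, Jchain and Igkc were at 0 as well. Summed pericyte markers were at 202 against 134 CPM, with 212 CPM in inguinal fibroblasts, and smooth muscle markers at 72.0 against 31.0 CPM. Skeletal muscle markers were at 40.3 against 9.31 CPM, Schwann cell markers at 19.1 against 12.4 CPM and adipocyte markers at 0 against 1.03 CPM. The neutrophil sum of 457 CPM included the single cell with 376 UMIs described above. The part of these other markers in the group was not tested.

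Genes outside the 8 also set the group apart within the thoracic library, which is a description because cells and genes come from the same counts. Among the 15 highest were Hs3st6, a heparan sulfate sulfotransferase (80.5 CPM in the group, 2.07 in other thoracic fibroblasts and 0 in inguinal ones), Nt5e, the ectonucleotidase CD73 (74.2, 4.14 and 2.82 CPM), and Col13a1, a membrane-spanning collagen (76.3, 8.27 and 2.82 CPM). Pdlim1, a cytoskeletal adaptor, was at 624, 107 and 123 CPM, and the calcium-binding S100b at 275, 48.6 and 55.5 CPM. S100a4 was at 1250, 321 and 166 CPM in the same order, and the basement membrane chain Col4a1 at 1357, 405 and 264 CPM. The receptor Pdgfrb was at 496, 284 and 298 CPM. The proteoglycan Dcn and the matrix protein Sparc, which all fibroblasts held at high level, were lower in the group, at 1716 against 2548 CPM and 9291 against 13059 CPM.

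Other genes were at low level in the group. Cthrc1, a secreted protein of matrix-producing fibroblasts, was at 4.24 CPM against 304 in other thoracic and 365 CPM in inguinal fibroblasts. Gpx3 was at 15.9, 634 and 1137 CPM. Clec3b, a marker of adventitial fibroblasts, was at 22.2, 573 and 432 CPM, and the surface antigen Ly6a at 31.8, 635 and 510 CPM. The Wnt inhibitor Sfrp4 had 2 UMIs in the group against 122 in the other thoracic cells, and Rbp4, a retinol carrier, 0 against 71. A UMI of Clec3b or Dpt was found in 7.93% (5.09 to 11.7%) of the group, in 38.0% (32.9 to 43.2%) of other thoracic and in 29.2% (24.8 to 33.8%) of inguinal fibroblasts. For Postn or Lrrc15 the shares were 76.6%, 88.9% and 93.6%.

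**Figure D4:**
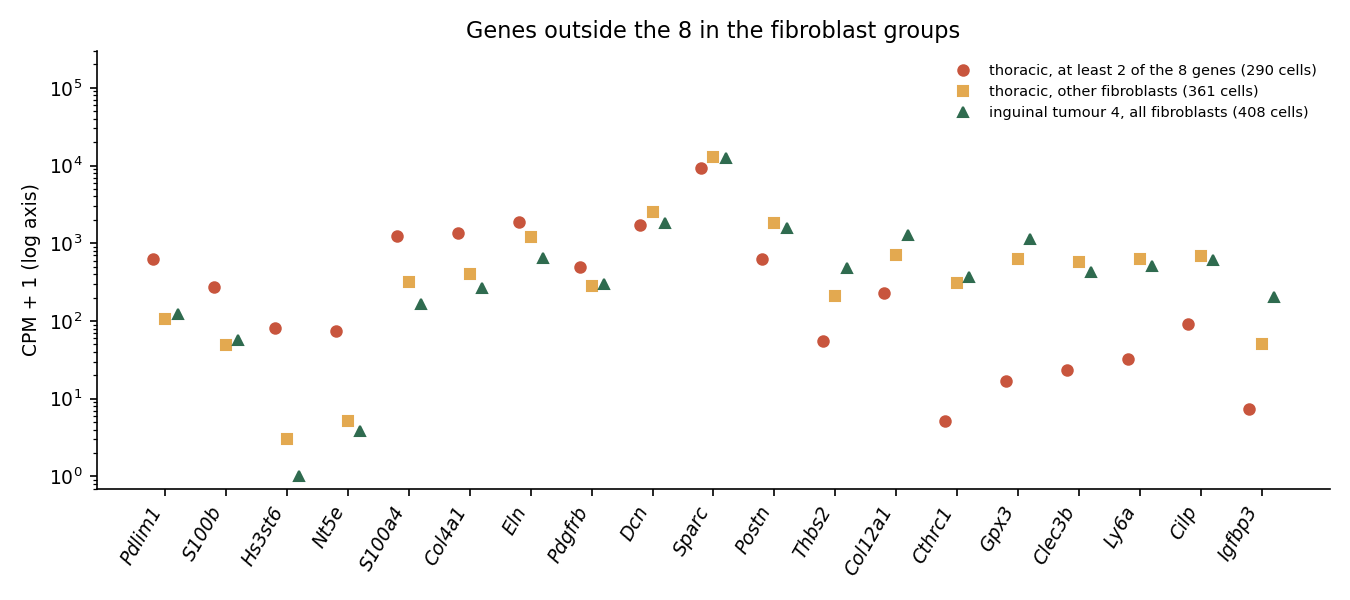
Level of named genes outside the 8 (x axis) as CPM + 1 on a log axis in thoracic fibroblasts with at least 2 of the 8 genes (circles), the other thoracic fibroblasts (squares) and inguinal fibroblasts (triangles). Squares and triangles lie close for genes such as Cthrc1 (304 and 365 CPM) and Pdlim1 (107 and 123 CPM), with the circles apart at 4.24 and 624 CPM.

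Tumour 1, from another mouse, had a few such cells, which the choice of genes did not use. Its 14 cells with at least 2 of the 8 genes were compared with its 192 other fibroblasts over the 30 genes that most set the thoracic group apart. The 15 lower genes had 10 UMIs in the 14 cells, or 338 CPM, against 5889 CPM in the others, 17.4-fold (9.46 to 36.4) lower, and each of the 15 was lower. A large part came from Ctla2a, with 2 against 812 UMIs. Gpx3 was at 67.6 against 746 CPM, and Cthrc1, Clec3b and Serpina3n had 0 UMIs against 119, 133 and 284. The 15 higher genes summed to 811 against 234 CPM, 3.46-fold (2.11 to 5.50) higher, but singly 7 of the 15 were higher, and the other 8 had 0 or 1 UMI in the 14 cells. Pdlim1 was at 304 against 89.9 CPM. The 14 cells held 29598 UMIs in all, which limits the single genes in both directions. Among those counted as higher, Pcbd2 and Smim41 also had 1 UMI in the 14 cells. Among the 15 lower genes, the ratio interval included 1 for Rbp4 (0 against 18 UMIs), Spsb1 (1 against 26 UMIs), Ccn5, Reg3g, Sfrp4, Sod3, Ccl7 and Thbs4.

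Gene lists were counted in the whole gate, in which 2.48% of all measured genes were past 2-fold higher and 2.55% lower. Of 17 measured matrix-type fibroblast genes, 0 were past 2-fold higher and 2 lower in thoracic fibroblasts (Thbs2 and Cthrc1), with a median log2 ratio of -0.44 against -0.00 over all genes. Postn, a matricellular protein, was at 1236 against 1582 CPM and Lrrc15 at 309 against 598 CPM. Of 12 adventitial-type genes 0 were higher and 1 lower (Gpx3), with a median of -0.55, and 11 of 12 lay below 0. Of 6 complement genes 2 were lower, among them Cd59a, an inhibitor of the membrane attack complex (151 against 316 CPM), with a median of -0.64. With the group left out, which the choice of its genes bears on, the medians were -0.03, 0.30 and 0.03. The lists were chosen with earlier results known, so these counts are descriptions.

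Collagen chains went in both directions. Of 15 measured in the list, 3 were past 2-fold higher and 2 lower, against 2.48% and 2.55% of all measured genes. The 3 higher of the list were all of basement membrane type. They were Col4a1 at 876 against 264 CPM (log2 ratio 1.73), Col4a2 at 857 against 308 CPM (1.47) and Col18a1 at 85.8 against 31.0 CPM (1.47). Col26a1, the collagen chain named above, was not in the list and had a higher log2 ratio, of 2.90. The 2 lower were chains that associate with fibrils, Col12a1 at 468 against 1277 CPM (-1.45) and Col14a1 at 190 against 395 CPM (-1.06). The chains of the gate were at 5179 against 7250 CPM for Col1a1, 6177 against 7627 CPM for Col1a2 and 4259 against 5266 CPM for Col3a1. Elastin (Eln) was at 1520 against 643 CPM (1.24), while the small proteoglycan Aspn was at 86.3 against 248 CPM (-1.52). All 5 measured adipogenic and lipid genes were above 0, with 1 past 2-fold, the prostacyclin synthase Ptgis (69.6 against 24.5 CPM). The lipoprotein lipase Lpl was at 420 against 221 CPM. The chemokine Cxcl14 was at 880 against 417 CPM (1.08).

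Genes past 2-fold were also counted among the fibroblasts outside the group. Since the group was picked by the genes of largest thoracic excess, a smaller count follows from that choice. With the group left out, 43 of 2645 genes were past 2-fold in place of 134, 20 higher (0.756%) and 23 lower (0.870%), and 9 of the higher and 21 of the lower genes were among those of the whole gate. C1qtnf3 was still at 35.2 against 173 CPM (log2 ratio -2.30), Fndc1 at 54.8 against 164 CPM (-1.58) and Thbs2 at 207 against 477 CPM (-1.21). Higher were Cxcl14 (879 against 413 CPM, 1.09), the small proteoglycan Fmod (62.1 against 21.8 CPM, 1.51) and Reg3g, a secreted lectin of which the thoracic cells had 135 and the inguinal 37 UMIs (1.99). These were picked from the 43 after their values were seen. The S100a4 level was 321 against 166 CPM.

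Genes that record position along the body were few. Hox genes encode transcription factors whose expression marks the level along the body axis, and Tbx, En and Emx genes mark limb and trunk regions. Of 51 such genes, 22 had at least 10 UMIs in the fibroblasts over both glands together, 13 of them Hox genes, and for 6 of the 22 the counting interval of the ratio excluded 1. Tbx15 had 93 thoracic and 18 inguinal UMIs (48.7 against 16.9 CPM), in 81 and 17 cells. En1 had 19 against 39 UMIs (9.94 against 36.7 CPM), Emx2 7 against 18 and Tbx3 11 against 17. Hoxb7 had 5 against 21 UMIs (2.62 against 19.8 CPM) and Hoxb2 3 against 9. In epithelial cells 13 position genes reached 10 UMIs, and for 8 of them the interval excluded 1. Tbx15 went the other way there, at 1.55 thoracic against 6.50 inguinal CPM, and Hoxb2 the same way as in fibroblasts, with 2 against 17 UMIs. The fibroblasts of tumours 1 and 2 had 12.6 and 24.1 CPM of Hoxb7, 15.1 and 20.4 CPM of Hoxb2, and 12.6 and 18.6 CPM of Tbx15. They had 12.6 and 13.0 CPM of En1, 5.04 and 5.57 CPM of Emx2, and 17.6 and 7.42 CPM of Tbx3. For En1, Emx2 and Tbx3 the inguinal tumour 2 was thus nearer the thoracic tumour 3 than the inguinal tumour 4. For Hoxb7, Hoxb2 (1.57 CPM in tumour 3 and 8.46 CPM in tumour 4) and Tbx15 it was nearer tumour 4.

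The most counted Hox gene of fibroblasts did not separate the glands at this depth. Hoxc10 had 112 thoracic and 54 inguinal UMIs, 58.6 against 50.8 CPM, with a ratio interval of 0.827 to 1.63. It had 0 UMIs in the fibroblasts of the inguinal tumour 2 and 7 in those of tumour 1. Hoxc8 was at 45.5 against 60.2 CPM and Hoxa9 at 25.6 against 18.8 CPM. In endothelial cells 8 position genes reached 10 UMIs, 7 of them Hox genes, and in macrophages 3, with no interval that excluded 1. Endothelial Hoxa7 was at 99.0 against 87.6 CPM, and Hoxb7, lower in thoracic fibroblasts, at 59.7 against 56.0 CPM in endothelial cells.

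**Figure D5:**
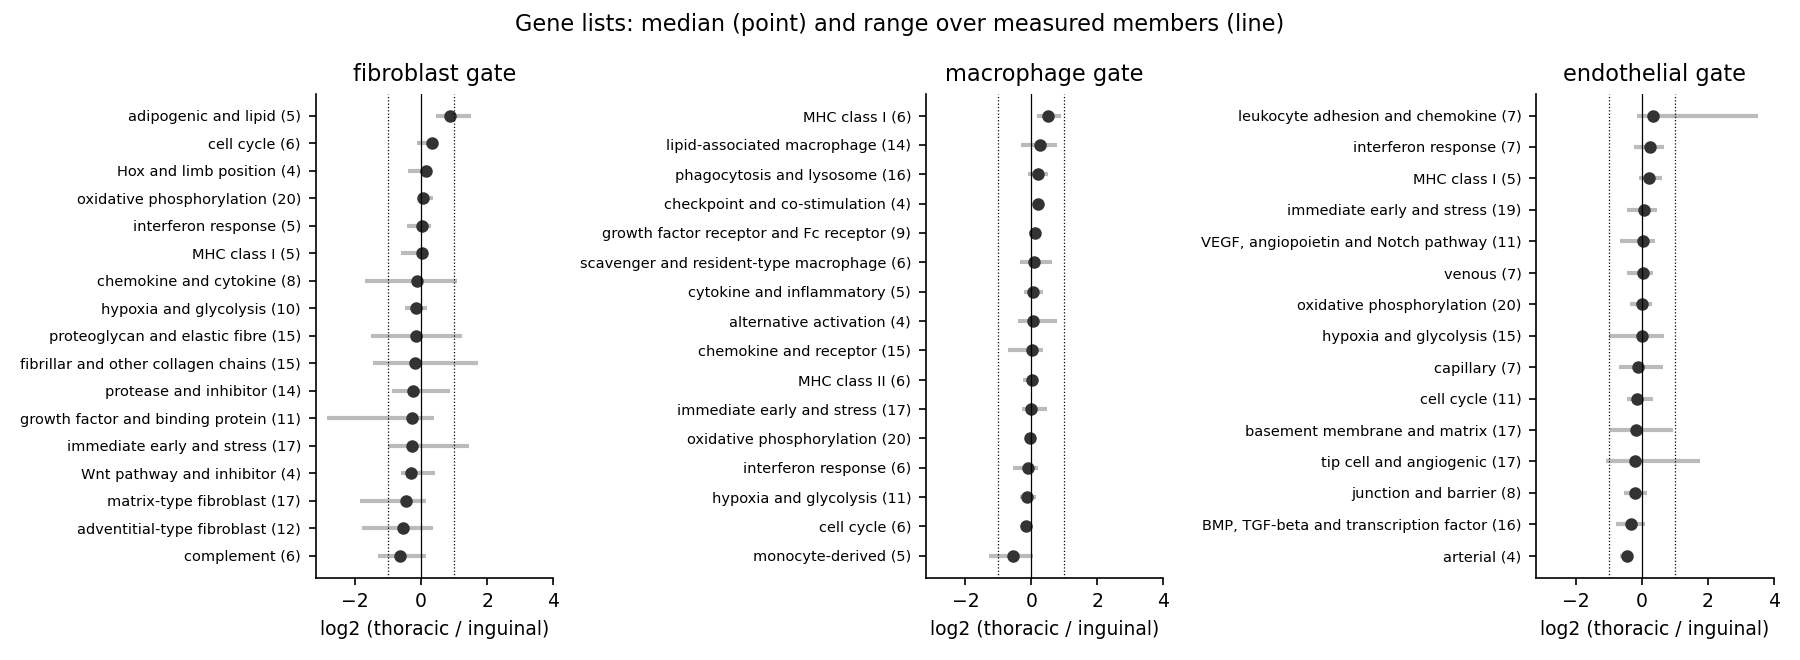
Log2 ratio of thoracic to inguinal level (x axis) for the gene lists with at least 4 measured members (y axis, number measured in brackets) in the 3 gates. Points are medians and lines run from the lowest to the highest member. Macrophage lists lie near 0, with MHC class I at 0.50 and monocyte-derived genes at -0.55 at the ends.

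Macrophages of the 2 glands were close. Of the 12 genes past 2-fold, 1 passed the limits on level in other cells. Macrophages held it at no less than 2 times the epithelial level, and no other gate at over 2 times the macrophage level. This was Il18bp, the secreted inhibitor of interleukin 18. It had 180 thoracic and 41 inguinal UMIs, in 109 of 914 and 35 of 672 cells, or 78.3 against 26.5 CPM (2.96-fold, 2.10 to 4.26). Macrophages of tumours 1 and 2 had 27.4 and 29.6 CPM, at the inguinal level. The other genes past 2-fold did not pass these limits on level in other cells. Among them were the lymphatic chemokine Ccl21a (81.8 against 3.88 CPM), the secreted carbonic anhydrase Car6 (81.8 against 18.1 CPM) and the epithelial galectin Lgals7 (238 against 107 CPM), and, lower, Slpi (31.3 against 138 CPM) and the milk protein Csn3 (208 against 693 CPM). Of the 188 thoracic Ccl21a UMIs, 181 were in 3 cells that had at least 3 of 7 lymphatic genes.

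Smaller differences in macrophages included lysosomal and antigen-presenting genes. Of 16 phagocytosis and lysosome genes 14 were above 0, none past 2-fold, with a median of 0.21 against -0.02 over all genes. Progranulin (Grn) was at 949 against 666 CPM and the activator protein Psap at 2827 against 2186 CPM. The 6 MHC class I genes, which present peptides to CD8 T cells, were all above 0 with a median of 0.50, and H2-D1 was at 3208 against 2201 CPM (1.46-fold, 1.40 to 1.52) and its partner B2m at 4043 against 2973 CPM. MHC class II genes, which present to CD4 T cells, had a median of 0.01, and Cd74 was at 14109 against 13359 CPM.

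Among 5 measured monocyte-derived genes, 2 were past 2-fold lower, against 0.325% of all measured macrophage genes, and the median was -0.55. They were the matrix protein Fn1 (50.5 against 123 CPM) and S100a4 (61.3 against 136 CPM). Other gates held both at over 2 times the macrophage level. S100a6 was at 306 against 448 CPM, while Cd14 (325 against 344 CPM) and the integrin Itgam (56.5 against 54.9 CPM) lay near 0. The chemokine Cxcl2 was at 828 against 1248 CPM. Among lipid-associated genes, 9 of 14 were above 0 (median 0.27). The protease Ctsd was at 4710 against 2759 CPM (1.71-fold, 1.65 to 1.77), with 1985 and 2314 CPM in tumours 1 and 2, the lipid carrier Apoe at 50988 against 40188 CPM, and the secreted Spp1 at 1870 against 2223 CPM. Selenop, a selenium carrier of resident macrophages, was at 1568 against 1016 CPM, and Hmox1, which breaks down haem, at 137 against 79.5 CPM.

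The spread of antigen presentation over single macrophages was also alike. After thinning to 1300 UMIs, the UMIs of 4 MHC class II genes had a median of 17 in thoracic and 16 in inguinal macrophages, with quartiles of 1 to 67.8 and 1 to 58. None were found in 18.8% and 19.9% of cells. The median was 16 in tumour 1 and 62 in tumour 2. In tumour 1, 355 of 712 macrophages had fewer than 1300 UMIs and were left out of this value.

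Endothelial cells with several lymphatic genes were found in the thoracic and not in the inguinal library. Lymphatic endothelium is known for the transcription factor Prox1, the receptors Lyve1 and Flt4 and the chemokine Ccl21, which draws dendritic and T cells into lymph vessels. At least 3 of 7 lymphatic genes, a rule set after the values were seen, were found in 17 of 303 thoracic endothelial cells (5.61%, 3.30 to 8.83%) and in 0 of 184 inguinal ones, which by the limit of 3 counts allows a share of up to 1.63%. Tumour 2 had 2 of 101 such cells and tumour 1 had 0 of 98. These genes picked the cells, so their counts describe the group. The 17 cells held 31 of 32 Prox1 UMIs, all 38 Lyve1 UMIs, all 21 Mmrn1 UMIs and 1296 of 1298 Ccl21a UMIs. Flt4 was not confined to them, with 21 UMIs in the 17 cells, 34 in other thoracic and 26 in inguinal endothelial cells. Reln had only 3 UMIs, all in the 17 cells. In inguinal endothelial cells Prox1 had 0 UMIs and Lyve1 had 2.

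The 3 highest endothelial ratios were those of Ccl21a, Lyve1 and Gm525, the first pair being among the 7 lymphatic genes. Ccl21a was at 1889 against 165 CPM (11.4-fold, 8.94 to 14.8), with 6.96 and 1244 CPM in tumours 1 and 2. In the inguinal library 1 cell held 60 of its 68 UMIs, and 1 endothelial cell of tumour 2 held 303 of 316. Ccl21a has near-identical gene copies, so its count may be shared with them. Lyve1 was at 55.3 against 4.87 CPM, from 38 and 2 UMIs (11.4-fold, 2.94 to 97.2), and Gm525 at 52.4 against 4.87 CPM, from 36 and 2 UMIs (10.8-fold, 2.77 to 92.3). Without the lymphatic-type cells, endothelial cells were still 3.39% (3.02 to 3.80%) of the thoracic and 1.95% of the inguinal library, 1.74 times the share.

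Other endothelial genes differed with few counts. Esm1, a secreted proteoglycan of tip cells, had 40 thoracic and 7 inguinal UMIs (58.2 against 17.0 CPM, 3.42-fold, 1.51 to 9.04), with 69.6 and 185 CPM in tumours 1 and 2. Tmem159, Palm, Mpp1, Rgs19, Rps4l and St3gal6 made up the rest of the 10 highest, between 2.09-fold and 3.16-fold. Nrarp, a Notch target that limits Notch signalling, was lower, with 10 against 26 UMIs (14.6 against 63.3 CPM, 4.35-fold higher in the inguinal library, 2.03 to 10.1). Stc1, a secreted glycoprotein, had 39 against 60 UMIs (56.8 against 146 CPM), and the kallikrein Klk8 6 against 23. The surface protein Mcam was at 71.3 against 151 CPM, and the tip ligand Dll4 at 45.1 against 70.6 CPM with an interval that included 1.

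The lowest endothelial ratios were those of neutrophil genes and came from very few cells. S100a8 was at 17.5 against 1132 CPM, S100a9 at 2.91 against 655 CPM and Retnlg at 2.91 against 207 CPM, but 1 inguinal cell held 712 of the 734 S100a8 and S100a9 UMIs. Wfdc21 had 0 against 27 UMIs, at least 15.0-fold lower against a floor of 3 counts in the thoracic library, and 92.6% of the 27 were in 1 cell. Without cells that had at least 5 UMIs of S100a8 and S100a9, and without the lymphatic-type cells, the log2 ratio of S100a9 and of Retnlg was 0.33, from few UMIs. Ccl21a was then at 3.10 against 168 CPM.

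Of the lists with at least 4 measured endothelial genes, none had a median beyond 0.5 either way, against -0.05 over all genes. Of 17 tip cell and angiogenic genes 1 was past 2-fold higher (Esm1) and 1 lower (Mcam), with a median of -0.20. Of all measured endothelial genes 1.27% were past 2-fold higher and 1.58% lower. Cells with at least 2 UMIs summed over 7 tip genes, which 1 gene alone can supply, were also counted. They were 12.2% (8.75 to 16.4%) of thoracic and 15.8% (10.8 to 21.8%) of inguinal endothelial cells after thinning to 1300 UMIs. In epithelial cells thinned alike the shares were 0.5% and 0.1%. Unthinned, they were 21.1% and 27.2% of the endothelial cells. All 4 arterial genes were below 0 (median -0.44), among them the connexin Gja4 (135 against 192 CPM). Of 16 BMP, TGF-beta and transcription factor genes 0 were past 2-fold and 15 were below 0 (median -0.34), with Sox18 at 52.4 against 90.1 CPM and the BMP receptor Acvrl1 at 56.8 against 97.4 CPM. The capillary genes Fabp4 (914 against 1375 CPM) and Gpihbp1 (1272 against 1511 CPM) were lower, and Rgcc (384 against 273 CPM) was higher. In the matrix list, Igfbp3 was at 563 against 1095 CPM and Igfbp5 at 418 against 801 CPM, short of 2-fold, and Mgp at 234 against 122 CPM.

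The share of fibroblasts with a marker was compared for 2 pairs of genes, and the intervals of the glands were apart for Postn or Lrrc15 and overlapped for Clec3b or Dpt. After thinning to 1300 UMIs, Postn or Lrrc15 was found in 66.4% (62.6 to 70.0%) of thoracic and 86.8% (83.1 to 89.9%) of inguinal fibroblasts, against 2.2% and 1.2% of epithelial cells thinned alike. Unthinned, the shares were 83.4% and 93.6%, at medians of 2806 and 2443.5 UMIs. Tumours 1 and 2 had Postn or Lrrc15 in 79.1% and 76.0% of fibroblasts thinned alike, between the thoracic and the inguinal share of mouse 3, and in 85.9% and 85.1% unthinned. Clec3b or Dpt was found in 18.9% (16.0 to 22.1%) and 22.5% (18.6 to 26.9%) after thinning, against 0.4% and 0.3% of epithelial cells. Tumours 1 and 2 had Clec3b or Dpt in 24.7% and 53.2% of fibroblasts thinned alike. Of the 206 fibroblasts of tumour 1, 48 had fewer than 1300 UMIs and were left out of both thinned shares.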

How the data were processed

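Single-cell RNA libraries of 4 tumours were deposited by the authors as raw UMI counts per gene and barcode. Cell Ranger 2.2.0 and FastQC with the mm10 (GRCm38) genome are named per the submitters' processing notes. The count tables list 55472 genes, and the annotation release is not given in the sources used here. No further cell filter or doublet caller was applied. Cells were gated, counts summed per library and gate, and scaled to CPM with Python 3.11.15, scipy 1.17.1 and, for TMM, edgeR 4.0.16. Ratios have exact conditional binomial intervals and shares exact Clopper-Pearson intervals, at 95%. Epithelial cells were those with at least 5 UMIs of Krt8 and Krt18 in no gate. Intervals cover counting error only. There was 1 sample a side, so no test was made.

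The genes named were the 10 highest and 10 lowest ratios past 2-fold that a gate held at no less than 2 times the epithelial level and no other gate at over 2 times its own level, up to 5 each way left out for that reason, the 2 highest, 2 lowest and the most abundant member of each of the lists, and position genes with at least 10 UMIs. Further list members and the genes of the fibroblast group were chosen after their values were seen. The gates, members and lists were chosen with earlier results of these data known. Some symbols (113) had several gene identifiers, of which the one with most UMIs was used. Coordinates are from GENCODE M21 on GRCm38. The ratio procedure was tested on simulated data. Alternatives were the gate minimum, the keratin limit, thinning, the denominator, TMM, the mean over cells, 200 CPM, and leaving out deep cells, the fibroblast group, or lymphatic-type and S100a8-S100a9 cells. Some single genes of the lists are not reported here.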

Additional observations from a re-analysis of the deposited data

Results flagged for a closer look

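In 4 comparisons a gene was past 2-fold in opposite directions in 2 of the gates, and the difference was not tested. S100a4 had a log2 ratio of thoracic to inguinal of 2.24 in fibroblasts and -1.15 in macrophages. S100a8 was at 3.69 in fibroblasts against -1.13 in macrophages, and at 3.69 against -6.02 in endothelial cells. S100a9 was at 5.04 in fibroblasts and -7.81 in endothelial cells. For S100a8 and S100a9, 1 cell held 376 of 419 UMIs in thoracic fibroblasts, 1 cell 712 of 734 in inguinal endothelial cells and 1 cell 169 of 197 in inguinal macrophages.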

How the results depend on the processing

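With 1 library a side there was no test, and depth limits genes under about 50 CPM. The ratio of thoracic to inguinal share kept its direction under each halved or doubled gate minimum and keratin limit. For fibroblasts it was 1.36 with thinned cells, 1.08 among gated cells and 0.998 without the group, for macrophages 0.920 and for endothelial cells 1.11 among gated cells. With a 200 CPM minimum the genes past 2-fold were 38, 2 and 7 in fibroblasts, macrophages and endothelial cells. Without the group, an alternative chosen after seeing the data, fibroblasts had 43. A keratin limit of 0 gave 21 in macrophages and 151 in endothelial cells, and a doubled gate minimum 225 in endothelial cells, with fewer cells. Lists with a median beyond 0.5 numbered 3, 2 and 1 in the 3 gates. They were 1, 0 and 0 at 200 CPM. In macrophages they were 1 for the mean over cells, 0 with the gate doubled, 1 with a keratin limit of 0 and 1 without deep cells, and in endothelial cells 2 for the mean over cells and 2 with the gate doubled. The Postn or Lrrc15 difference was -20.4 percentage points, and -10.2 unthinned. Without the group the adventitial-type median was 0.30, the complement median 0.0335 and the Col26a1 log2 ratio -1.17. Without lymphatic-type and S100a8-S100a9 cells the log2 ratio was -5.76 for Ccl21a, 0.33 for Retnlg and 0.33 for S100a9. The causes of these shifts were not tested. Over all alternatives, 239 of 265 values of single genes stayed within their counting interval or, where a gland was at 0, kept their direction, and 281 of 312 list medians moved by less than 0.2. The main results, such as shares and gene counts, held less well. Of their 64 values, 41 were classed as the same, 21 as moved and 2 as reversed. The alternatives with an infinite list median (lymphatic genes, gate doubled or keratin limit of 0) gave no value. No paired analysis was possible because each side had 1 library.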
